A study of Mus musculus with 9 samples.

Results

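Genes of the transforming growth factor beta (TGF-beta) and bone morphogenetic protein (BMP) pathways were followed in melanocyte stem cells, which reside in the hair follicle and renew its pigment cells. The 36 genes were chosen by symbol as ligands, ligand regulators, receptors, SMAD proteins, repressors, ubiquitin ligases and ID targets, and all 36 were found among the 55359 genes of the deposited table. Cells had been purified by FACS from skin of mice with the genotype Dct-H2B-GFP KI/+, a heterozygous knock-in of a fluorescent histone at the pigment gene Dct. The sorting gate is not given in the labels. The 9 RNA-seq libraries came from 3 irradiated (IR, 5 Gy), 3 DMBA-treated and 3 vehicle-treated samples. All 9 carried the reporter allele. DMBA (dimethylbenzanthracene) is a chemical carcinogen that is widely used on mouse skin. The labels used here give no age, no interval between treatment and sorting, and no dose or route of DMBA, so the groups may not be matched for time or dose. They also do not say whether the IR animals received vehicle, or that replicates came from separate animals. P-values therefore cover no more than the spread among these libraries, and that spread may be technical.

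TGF-beta, activin and BMP ligands are secreted dimers that bring together type I and type II receptor kinases. TGF-beta and activin receptors activate SMAD2 and SMAD3, BMP receptors activate SMAD1 and SMAD5, and both branches share SMAD4. SMAD6 and SMAD7 inhibit the receptors, SKI and SKIL repress SMAD complexes, SMURF ubiquitin ligases mark SMADs and receptors for degradation, and the ID genes are classic BMP targets. In the mouse hair follicle, TGF-beta from the bulge niche is known for holding melanocyte stem cells in quiescence, and BMP for doing the same in follicle stem cells.

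Depth was between 6938406 and 8156905 counts per library. Levels are given as FPKM, the authors' value scaled for exonic length and library total. Melanocyte lineage markers (10 genes) summed to between 1760 and 2420 FPKM in IR, 1760 and 2050 in DMBA and 1890 and 1940 in vehicle libraries. Basal keratinocyte markers (12 genes) were also abundant and uneven, at 3510, 723 and 1250 FPKM in IR 1, 2 and 3, 2370, 3760 and 3400 in DMBA 1, 2 and 3, and 1630, 1350 and 2060 in vehicle 1, 2 and 3. IR 2 and vehicle 2 had the lowest mean correlations with the other libraries (0.872 and 0.873), so alternatives without them are given where they change a call. The endothelial list (5 genes) reached at most 1.07 FPKM in any library. In the dermal fibroblast list (8 genes) Vim, which pigment cells also express, had 344.06 to 635.52 FPKM, and the other 7 genes reached at most 1.47 FPKM in sum, with Lum at 0 in each library. Differentiated epidermis markers (10 genes) summed to between 220 and 1480 FPKM in IR, 1240 and 1870 in DMBA and 509 and 612 in vehicle libraries. Bulge markers (8 genes, Nfatc1 among them) summed to between 67.5 and 79.3 FPKM in IR, 57.1 and 65.1 in DMBA and 56.1 and 57.5 in vehicle libraries. Leukocyte markers (7 genes) summed to 31.5 FPKM in IR 1 and 1.58 and 2.62 in IR 2 and IR 3, and to between 6.82 and 11.6 in DMBA and 3.42 and 10.6 in vehicle libraries. The part of these cells in the results was not tested, apart from the basal keratinocyte fits given below. In bulk RNA of this kind, fewer cells of a type and less RNA per cell cannot be told apart.

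The clearest differences lay between irradiated and DMBA-treated cells, in Smad3 and Inhbb. Their promoter sequences are shown first because these are the members that passed the test, together with those of Id2 and Id4, BMP targets whose 250 bases hold the BMP-type element GGCGCC. Each is the 250 bases before the annotated start, 5′ to 3′ on the gene's strand, from RefSeq on GRCm38.p6. Capitals mark GGCGCC and the GC box GGGCGG on either strand, which can touch or overlap where C and G runs meet.
Smad3: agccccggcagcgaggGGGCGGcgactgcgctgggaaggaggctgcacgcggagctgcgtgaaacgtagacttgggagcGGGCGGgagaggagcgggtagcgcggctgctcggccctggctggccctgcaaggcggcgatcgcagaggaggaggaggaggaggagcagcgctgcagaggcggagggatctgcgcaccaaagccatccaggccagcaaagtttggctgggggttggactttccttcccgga
Inhbb: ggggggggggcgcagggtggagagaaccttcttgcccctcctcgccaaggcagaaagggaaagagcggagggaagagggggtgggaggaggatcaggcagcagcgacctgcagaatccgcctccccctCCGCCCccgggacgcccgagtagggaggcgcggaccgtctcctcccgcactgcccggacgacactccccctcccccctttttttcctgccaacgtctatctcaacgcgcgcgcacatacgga
Id2: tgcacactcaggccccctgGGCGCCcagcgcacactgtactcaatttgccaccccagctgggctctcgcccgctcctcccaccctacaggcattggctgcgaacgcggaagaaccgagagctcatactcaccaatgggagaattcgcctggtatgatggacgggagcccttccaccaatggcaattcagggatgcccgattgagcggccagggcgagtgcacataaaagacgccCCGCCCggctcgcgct
Id4: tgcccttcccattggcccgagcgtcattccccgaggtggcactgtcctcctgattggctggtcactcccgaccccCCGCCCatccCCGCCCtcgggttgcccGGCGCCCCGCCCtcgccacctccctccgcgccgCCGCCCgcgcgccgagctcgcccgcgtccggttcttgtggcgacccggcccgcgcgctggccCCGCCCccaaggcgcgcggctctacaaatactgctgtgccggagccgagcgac

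The Smad3 stretch lies at chr9:63757995-63758244 on the minus strand, Inhbb at chr1:119422249-119422498 (minus), Id2 at chr12:25096093-25096342 (minus) and Id4 at chr13:48260866-48261115 (plus). Promoter entries were matched by symbol for 26 of 36 genes, 32 promoters in all. Of these 32, 22 (68.8%) held GGGCGG, against 32.7% of 32851 mouse promoter windows of the same length. GGCGCC stood in 8 of 32 (25.0%) against 9.59% of all windows. Besides Id2 and Id4, these were promoters of Tgfbr1, Bmpr1a, Bmpr2, Smad5, Ski and Smurf2. The Id3 promoter did not hold it, and Id1 had no matched entry. The SMAD-binding palindrome GTCTAGAC was in 0 of 32 and in 0.167% of all windows, and CAGACA, which holds the SMAD box CAGAC, was in 5 (15.6%) against 17.1%. The E-box CACGTG was in 3 (9.38%) against 6.02%. A match describes letters only, and base composition was not taken into account. The Smad3 stretch has 69.2% G and C bases with 2 GC boxes, and the Inhbb stretch has 68.0% with 1.

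Most of the machinery was present at the RNA level. Mean FPKM was at least 1 in every group for 32 of 36 genes and at least 5 in some group for 29. The repressor gene Ski and the BMP target Id3 held the first and second places in each group. Ski averaged 95.1 ± 2.81 FPKM in IR, 78.8 ± 15.7 in DMBA and 92.7 ± 12.6 in vehicle libraries (mean ± SD, n = 3 each, as throughout). Id3 averaged 80.9 ± 18.5 in IR, 120.0 ± 32.3 in DMBA and 108.0 ± 27.0 in vehicle libraries. The ranges of the 2 genes overlapped in IR and in vehicle libraries, while in DMBA each Id3 value lay above each Ski value. Smad5 came next in each group, and its range overlapped that of Smad4 in IR and vehicle libraries. At the other end, the activin A subunit gene Inhba had 0, 1 and 0 counts in IR libraries, 0, 19 and 0 in DMBA and 0 in each vehicle library. The BMP receptor gene Bmpr1b had 0 counts in each IR library, 0, 6 and 1 in DMBA libraries and 3, 0 and 0 in vehicle libraries. Both fell below the count filter, which left 34 of the 36 genes tested.

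**Figure D1:**
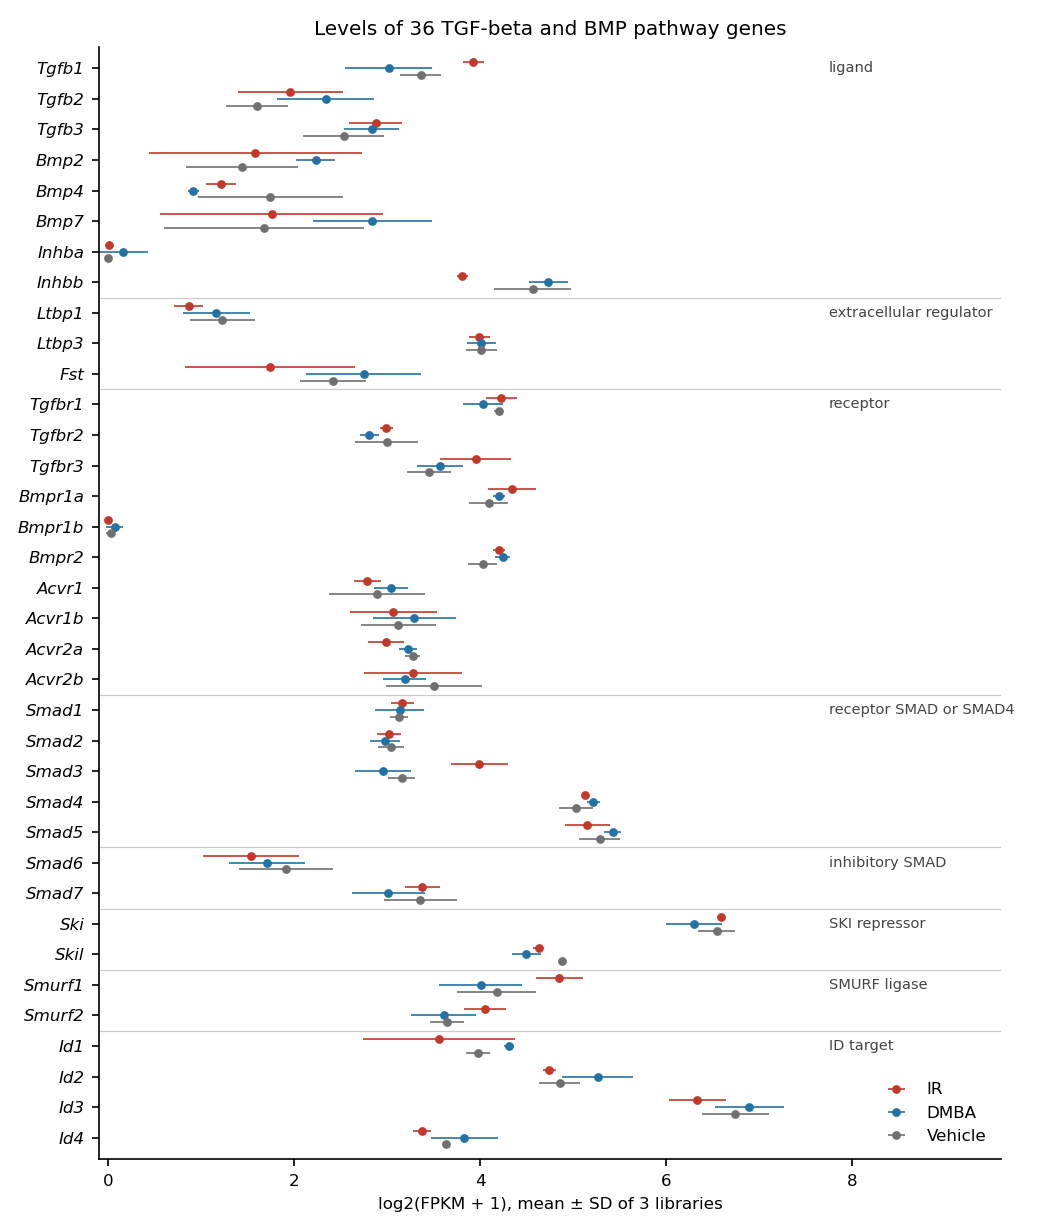
Mean level of each of the 36 genes as log2(FPKM + 1), with SD over 3 libraries, for IR, DMBA and vehicle, grouped by role. Ski and Id3 lie farthest right, Inhba and Bmpr1b at or near 0, and the IR points of Smad3, Tgfb1 and Inhbb stand apart from the other groups.

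For the tests, the counts of 16051 genes went into the quasi-likelihood test of edgeR (two-sided, Benjamini-Hochberg adjustment). Genes with an adjusted p under 0.05 are termed called. Between IR and DMBA, 2 of 34 tested members were called, Smad3 higher and Inhbb lower in IR. Over all genes tested, 0.978% were called in that comparison, 0.878% higher and 0.0997% lower. Against vehicle, edgeR called 0 members after IR (all genes: 0.735%, 0.71% higher and 0.0249% lower), with 5 at an unadjusted p under 0.05 and 2 called by DESeq2 (Smad3 and Inhbb), which called 260 of all genes. After DMBA edgeR called 0 members (all genes: 0.0374%), with 2 at an unadjusted p under 0.05 and 0 by DESeq2. Of the 5 members at an unadjusted p under 0.05 for IR against vehicle, 4 were higher (all genes: 4.93%) and 1 lower (3.33%). For DMBA against vehicle 1 was higher (3.85%) and 1 lower (2.85%). For IR against DMBA there were 7, of which 4 were higher (4.59%) and 3 lower (3.53%). A positive log2 fold change was fitted for 16 of 34 members in IR against vehicle (49.8% of all genes), 17 in DMBA against vehicle (50.5%) and 18 in IR against DMBA (48.5%). In limma, on log2(FPKM + 1), 0 members were called in each of the 3 comparisons. The 2 comparisons that involve IR share its libraries, as those with vehicle share the vehicle libraries, so their values stand side by side and are not independent. The median log2 fold change of the 34 members was -0.02 for IR against vehicle, 0.04 for DMBA against vehicle and 0.01 for IR against DMBA. Over all genes it was -0.002, 0.006 and -0.017. In library-scaled counts, the 3 libraries of each group did not overlap in 10 members (29.4%) for IR against vehicle, 3 (8.82%) for DMBA against vehicle and 9 (26.5%) for IR against DMBA. Over all genes tested that was so in 13.8, 13.7 and 14.9%. The members were chosen with earlier results of these data known, so these shares do not test the pathway.

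**Figure D2:**
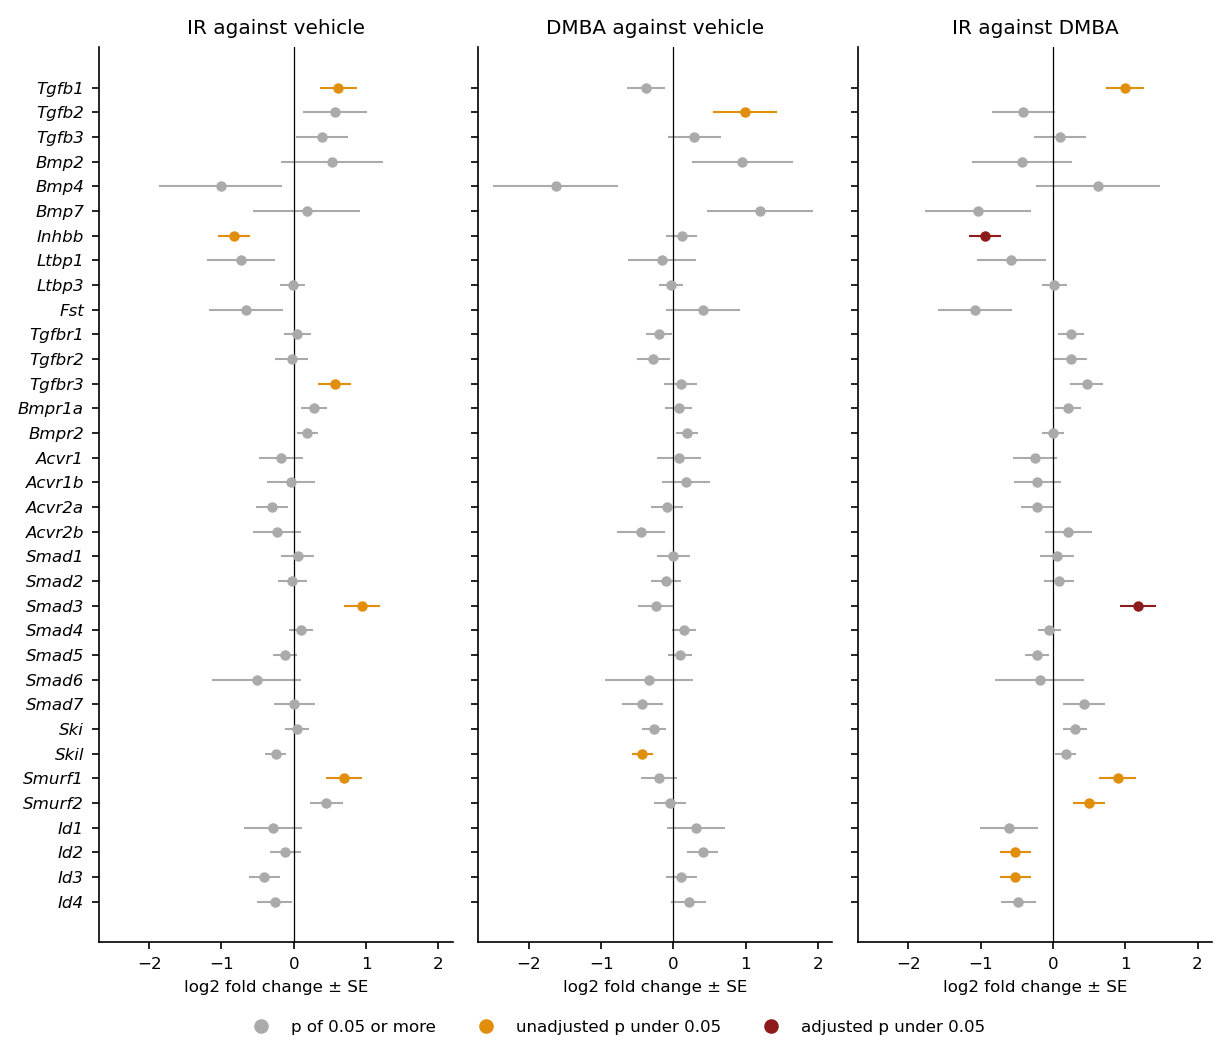
Log2 fold change with its standard error for the 34 tested genes in the 3 comparisons, from edgeR's fit. Dark red marks an adjusted p under 0.05 (Smad3 and Inhbb, IR against DMBA), orange an unadjusted p under 0.05, and grey the rest.

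Among the ligand genes, Inhbb had the highest mean FPKM in DMBA and vehicle libraries, and Tgfb1 in IR libraries, where the ranges of the 2 genes overlapped. Inhbb encodes the beta B subunit, which forms activin B, and Tgfb1 encodes TGF-beta 1. Inhbb had 12.5, 12.9 and 13.7 FPKM in IR 1, 2 and 3, against 28.6, 27.3 and 21.5 in DMBA 1, 2 and 3. Vehicle 1, 2 and 3 had 21.98, 31.0 and 17.0 FPKM. Each IR library lay below each of the other 6, and the IR values were close together. The log2 fold change was -0.94 ± 0.22 (SE) for IR against DMBA (edgeR adjusted p = 0.0483) and -0.83 ± 0.22 for IR against vehicle (edgeR adjusted p = 0.125). For DMBA against vehicle it was 0.11 (edgeR adjusted p = 0.963). The call against DMBA held in 9 of 22 alternatives. It was lost without vehicle 1 (adjusted p = 0.0696), IR 1 (0.052), IR 2 (0.135), IR 3 (0.132), DMBA 1 (0.212) or DMBA 2 (0.176), while the log2 fold change stayed between -1.07 and -0.85 with each library left out. It was also lost with RLE scaling (adjusted p = 0.0502), with the replicate block (0.0577), without vehicle 2 and IR 2 together (0.089) and in 4 limma settings (0.133 to 0.262). With the basal keratinocyte level as a covariate Inhbb was called against both DMBA (adjusted p = 0.0378) and vehicle (0.0487).

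Tgfb1 had 13.5, 13.5 and 15.7 FPKM in IR libraries, 9.78, 4.71 and 7.58 in DMBA libraries and 7.61, 9.99 and 10.4 in vehicle libraries. The IR libraries lay above each of the other 6, and DMBA and vehicle overlapped. It did not pass the test, with a log2 fold change of 1.00 ± 0.26 against DMBA (edgeR adjusted p = 0.091) and 0.62 ± 0.26 against vehicle (edgeR adjusted p = 0.505). The call against DMBA was reached without IR 1 (adjusted p = 0.0485) or DMBA 1 (0.0464), by DESeq2 (0.0212) and in the unfiltered fit (0.0108). As a share of the summed FPKM of the 3 TGF-beta ligand genes, Tgfb1 made 63.4, 53.8 and 63.2% in IR, 45.4, 39.7 and 37.6% in DMBA and 43.3, 67.0 and 62.3% in vehicle libraries. The IR and DMBA shares did not overlap (exact permutation p = 0.1, two-sided, the smallest that 3 against 3 libraries can give). Against vehicle, the exact permutation p was 0.8 for IR and 0.2 for DMBA. The share contains Tgfb1, whose IR and DMBA values did not overlap, so it is not independent of them. Its sum also holds Tgfb3, whose count is uncertain.

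The other TGF-beta ligand genes were lower in level. Tgfb2 had 1.48, 3.65 and 4.09 FPKM in IR, 4.28, 2.46 and 6.07 in DMBA and 2.88, 1.44 and 1.94 in vehicle libraries, so all groups overlapped. Its log2 fold change for DMBA against vehicle was 0.99 ± 0.44 (edgeR adjusted p = 0.729). Tgfb3 had 6.28, 7.96 and 5.05 FPKM in IR, 7.48, 4.69 and 6.52 in DMBA and 7.07, 3.49 and 4.33 in vehicle libraries. Tgfb3 lies over Ttll5 on the opposite strand, which has 346% of its counts, so its count is uncertain. Bmp4 had 1.06, 1.34 and 1.57 FPKM in IR, 0.80, 0.90 and 0.96 in DMBA and 1.04, 4.95 and 2.09 in vehicle libraries. The DMBA libraries lay below each of the other 6 at these low levels, but Bmp4 did not pass for DMBA against vehicle (edgeR adjusted p = 0.751).

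The BMP ligand genes Bmp2 and Bmp7 and the activin antagonist gene Fst overlapped between all groups, and their levels moved with basal keratinocyte RNA. Bmp2 had 6.29, 0.59 and 1.31 FPKM in IR, 3.85, 4.32 and 3.00 in DMBA and 1.10, 1.16 and 3.40 in vehicle libraries. Bmp7 had 6.44, 0.42 and 2.67 FPKM in IR, 4.18, 4.96 and 10.9 in DMBA and 2.14, 0.53 and 5.76 in vehicle libraries. Fst, whose product binds activins, had 5.53, 0.86 and 2.06 FPKM in IR, 3.52, 5.31 and 9.55 in DMBA and 3.74, 3.55 and 6.10 in vehicle libraries. In IR each gene was highest in IR 1 and lowest in IR 2, the libraries with the most and the least keratinocyte RNA of that group, and in vehicle each was highest in vehicle 3. In DMBA the order was not that of the markers, which were highest in DMBA 2 and lowest in DMBA 1, since Bmp7 and Fst were highest in DMBA 3 and Bmp2 was lowest there. For the relation to the mean log2(FPKM + 1) of the 12 basal markers, 34 members were tested over 9 libraries by exact permutation, adjusted over the 34. Values were permuted across the groups, so these p-values do not separate marker level from treatment. Pearson's r passed for 3. It was 0.91 for Bmp2 (exact permutation p = 0.00128, adjusted p = 0.0236), 0.88 for Fst (exact permutation p = 0.00186, adjusted p = 0.0236) and 0.87 for Bmp7 (exact permutation p = 0.00208, adjusted p = 0.0236). Spearman's rho was 0.87, 0.72 and 0.80 (exact permutation p = 0.00451, 0.0369 and 0.0138; adjusted p = 0.0766, 0.283 and 0.157), so no rho passed. Without IR 2 and DMBA 2, the libraries farthest from the median marker level, r was 0.88 for Bmp2, 0.81 for Fst and 0.86 for Bmp7. Over deviations from the group means it was 0.90, 0.90 and 0.83, and 3 libraries a group are too few for a value within each. The relation no longer passed for each of the 3 without IR 1, IR 2 or DMBA 1, and for Fst also without IR 3, with adjusted p up to 0.233. Without IR 1, Fst was called lower in IR than in DMBA (log2 fold change -1.99, edgeR adjusted p = 0.0299). With all 9 libraries its edgeR adjusted p was 0.622. The source of the Bmp2, Bmp7 and Fst transcripts was not tested.

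**Figure D3:**
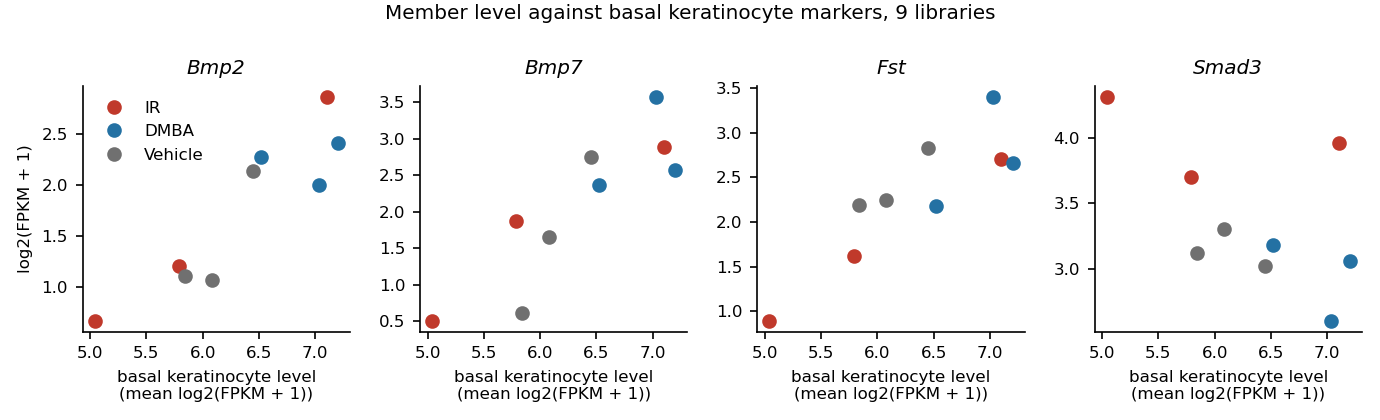
Level of Bmp2, Bmp7, Fst and Smad3 as log2(FPKM + 1) against the mean log2(FPKM + 1) of 12 basal keratinocyte markers, 1 point per library. The first 3 genes climb with the marker level across groups, and the IR libraries of Smad3 stand above the others at low and high marker level.

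Of the latent TGF-beta binding protein genes, which anchor the inactive ligand in the matrix, Ltbp3 was the abundant one. It had 13.9, 16.3 and 14.5 FPKM in IR, 14.2, 17.2 and 14.1 in DMBA and 16.1, 13.1 and 16.4 in vehicle libraries, and its log2 fold changes were between -0.03 and 0.02. Ltbp1 averaged 0.827 ± 0.195 in IR, 1.28 ± 0.551 in DMBA and 1.38 ± 0.56 FPKM in vehicle libraries, with no call.

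Of the 9 receptor genes tested, edgeR called 0 in each comparison. At an unadjusted p under 0.05, 1 (11.1%) was higher in IR than in vehicle (Tgfbr3), against 4.93% of all genes, and 0 in the other comparisons. DESeq2 and limma called 0. The type I receptor genes of the TGF-beta and BMP branches were present side by side. Tgfbr1 had 15.5, 19.7 and 18.2 FPKM in IR, 15.7, 17.7 and 12.9 in DMBA and 18.1, 16.9 and 17.1 in vehicle libraries. Bmpr1a had 23.96, 17.2 and 17.4 FPKM in IR, 18.03, 17.6 and 16.5 in DMBA and 13.45, 16.7 and 18.3 in vehicle libraries. Both genes overlapped between all groups. Bmpr2, the BMP type II receptor gene, had 16.7, 17.1 and 18.4 FPKM in IR, 18.8, 18.1 and 16.8 in DMBA and 16.6, 13.4 and 16.1 in vehicle libraries. Tgfbr2, the TGF-beta type II receptor gene, had 7.37, 6.62 and 6.81 FPKM in IR, 6.32, 6.28 and 5.44 in DMBA and 9.28, 6.62 and 5.47 in vehicle libraries. Each Bmpr2 value lay above each Tgfbr2 value in FPKM. For Bmpr2, each treated library lay above each vehicle library in FPKM by a narrow margin (IR against vehicle, edgeR adjusted p = 0.852). In library-scaled counts DMBA and vehicle overlapped for Bmpr2. For Tgfbr2, IR lay above DMBA by a narrow margin (edgeR adjusted p = 0.904). Of the receptor genes that serve activins or BMPs, Acvr1 (ALK2) had 6.77, 5.55 and 5.46 FPKM in IR, 8.07, 6.16 and 7.58 in DMBA and 5.76, 4.45 and 9.97 in vehicle libraries. Acvr1b, the type I activin receptor gene, had 10.9, 5.35 and 6.74 FPKM in IR, 6.31, 12.6 and 8.45 in DMBA and 5.30, 9.06 and 9.36 in vehicle libraries. These genes overlapped between all groups. Acvr2a, a type II activin receptor gene, had 7.20, 5.84 and 7.92 FPKM in IR, 8.92, 7.71 and 8.47 in DMBA and 8.26, 8.44 and 9.30 in vehicle libraries. Its IR values lay below vehicle (edgeR adjusted p = 0.837). Acvr2b, the other type II activin receptor gene, had 6.27, 13.6 and 7.54 FPKM in IR, 7.0, 7.66 and 9.87 in DMBA and 6.74, 14.8 and 10.9 in vehicle libraries, with its highest IR and vehicle values in IR 2 and vehicle 2. Acvr2a overlaps Orc4 on the opposite strand, which has 114% of its counts, so its count is uncertain.

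Tgfbr3, which encodes betaglycan, a co-receptor that presents TGF-beta 2, had 19.99, 12.1 and 12.4 FPKM in IR, 10.4, 13.3 and 9.23 in DMBA and 12.0, 9.70 and 8.40 in vehicle libraries. The IR libraries lay above vehicle by a narrow margin, and the highest value was that of IR 1. Its log2 fold change against vehicle was 0.57 ± 0.23 (edgeR adjusted p = 0.499) and did not pass. Without IR 1 it was 0.31 (edgeR adjusted p = 0.801).

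Within the signal-carrying SMAD genes, Smad3 stood alone in separating the groups. Smad3 had 14.6, 18.8 and 12.0 FPKM in IR 1, 2 and 3, against 8.11, 7.34 and 5.10 in DMBA 1, 2 and 3. Vehicle 1, 2 and 3 had 8.91, 7.73 and 7.15 FPKM. Each IR library lay above each of the other 6, and DMBA and vehicle overlapped. The log2 fold change was 1.18 ± 0.25 for IR against DMBA, 2.27-fold (edgeR adjusted p = 0.0209), and 0.94 ± 0.25 for IR against vehicle, 1.92-fold (edgeR adjusted p = 0.112). For DMBA against vehicle it was -0.24 (edgeR adjusted p = 0.909). A joint test for any difference among the 3 groups called Smad3 as the only member (edgeR adjusted p = 0.0266; 1.07% of all genes called), with Inhbb at 0.0823. With the basal keratinocyte level as a covariate that joint test called Inhbb (edgeR adjusted p = 0.036) and not Smad3. The call against DMBA was lost without IR 2 (log2 fold change 0.98, adjusted p = 0.153), DMBA 2 (0.0533) or DMBA 3 (0.127), without vehicle 2 and IR 2 together (0.161), with the keratinocyte covariate (1.01, 0.107) and in limma (0.111). DESeq2 and the unfiltered fit called Smad3 also against vehicle (adjusted p = 0.0258 and 0.0212). The highest Smad3 value was in IR 2, the library with the least keratinocyte RNA. IR 1, with 3510 FPKM of basal markers, had 14.6 FPKM of Smad3. Over the 9 libraries, Pearson's r of Smad3 with the basal marker level was -0.55 (exact permutation p = 0.125, adjusted p = 0.369). Without IR 2 and DMBA 2 it was -0.10, and over deviations from the group means -0.4. Beyond these values and the covariate fit, the part of keratinocyte RNA in the Smad3 values was not tested.

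**Figure D4:**
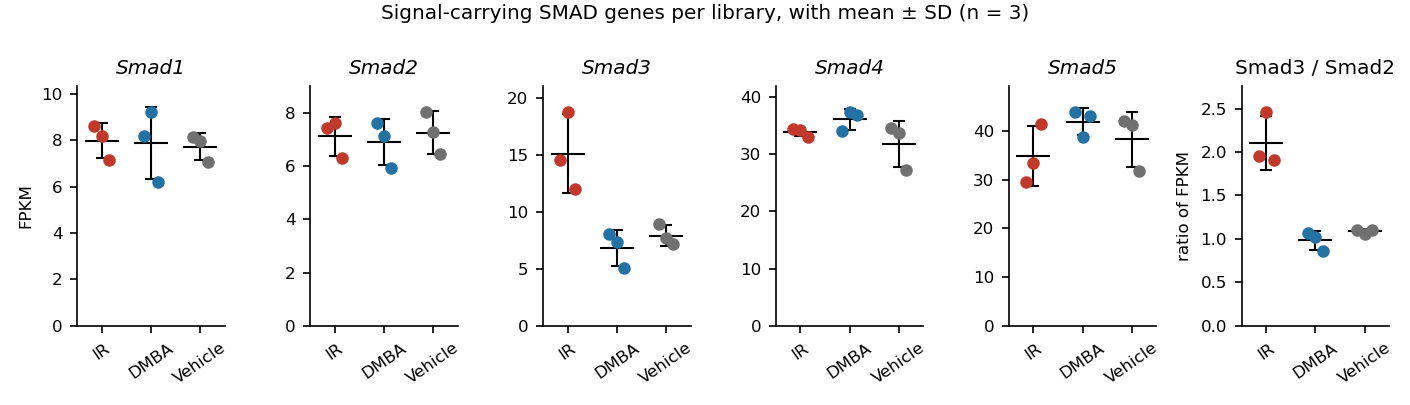
FPKM of Smad1, Smad2, Smad3, Smad4 and Smad5 and the Smad3 to Smad2 ratio in each library, with mean ± SD of 3. Smad3 and the ratio separate IR from the other groups, with ratios of at least 1.9 in IR, and the remaining 4 genes overlap between groups.

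Smad2, the partner of Smad3 in the TGF-beta and activin branch, had 7.46, 7.64 and 6.30 FPKM in IR, 7.63, 7.15 and 5.94 in DMBA and 8.06, 7.29 and 6.46 in vehicle libraries, and all groups overlapped. The within-library ratio of Smad3 to Smad2, which does not depend on library scaling, was 1.96, 2.46 and 1.9 in IR, 1.06, 1.03 and 0.859 in DMBA and 1.11, 1.06 and 1.11 in vehicle libraries. IR did not overlap DMBA or vehicle (exact permutation p = 0.1 for each, two-sided, the smallest possible). This ratio was chosen after its values were seen. The ratio of Inhbb to Fst was computed too, and it overlapped between all groups. Its exact permutation p was 0.7 for IR and 0.7 for DMBA against vehicle, and 0.6 for IR against DMBA. The BMP-branch genes Smad1 and Smad5 and the shared Smad4 had log2 fold changes between -0.22 and 0.15 in the 3 comparisons, and their groups overlapped. Smad1 had 8.63, 8.16 and 7.14 FPKM in IR, 8.18, 9.23 and 6.19 in DMBA and 8.14, 7.98 and 7.06 in vehicle libraries. Smad5 had 29.6, 33.4 and 41.5 FPKM in IR, 43.9, 38.8 and 43.0 in DMBA and 41.9, 41.1 and 31.7 in vehicle libraries, above Smad1 in each. Smad4 had 34.5, 34.2 and 33.1 FPKM in IR, 34.1, 37.5 and 36.9 in DMBA and 34.55, 33.7 and 27.2 in vehicle libraries.

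The inhibitory SMAD genes gave no call. Smad7, itself induced by TGF-beta as a feedback inhibitor, had 8.53, 11.1 and 8.71 FPKM in IR, 4.91, 7.92 and 8.89 in DMBA and 6.56, 11.7 and 10.1 in vehicle libraries. Its log2 fold change was 0.01 for IR against vehicle, where Smad3 had 0.94. Smad6, the BMP-branch inhibitor gene, ranged from 0.97 to 2.99 FPKM in IR, 1.44 to 3.29 in DMBA and 1.53 to 3.90 in vehicle libraries, with all groups overlapping.

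The repressor gene Skil, which encodes SnoN, had lower values in both treated groups than in vehicle without passing the test. It had 22.8, 24.8 and 23.7 FPKM in IR, 23.3, 22.7 and 19.0 in DMBA and 28.6, 28.6 and 28.4 in vehicle libraries. All 6 treated libraries lay below the 3 vehicle libraries. The log2 fold change was -0.25 for IR (edgeR adjusted p = 0.744) and -0.43 ± 0.15 for DMBA (edgeR adjusted p = 0.636) against vehicle. Ski had 91.9, 96.5 and 97.0 FPKM in IR, 89.7, 85.8 and 60.8 in DMBA and 94.9, 79.2 and 104.05 in vehicle libraries, with DMBA 3 the lowest and a log2 fold change of 0.31 for IR against DMBA (edgeR adjusted p = 0.696).

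Both SMURF ligase genes had higher values in each IR library than in each vehicle library without passing the test. Smurf1 had 26.2, 34.2 and 24.2 FPKM in IR, 18.2, 18.2 and 10.2 in DMBA and 21.0, 19.8 and 11.9 in vehicle libraries. The IR libraries lay above each of the other 6, as for Smad3, and again IR 2 was the highest. The log2 fold change was 0.89 ± 0.25 against DMBA (edgeR adjusted p = 0.131) and 0.69 ± 0.25 against vehicle (edgeR adjusted p = 0.374). Smurf1 was called against DMBA without IR 1 (adjusted p = 0.0404), by DESeq2 (0.0382), with the replicate block (0.0227) and in the unfiltered fit (0.000749). The unfiltered fit also called it against vehicle (edgeR adjusted p = 0.0441). Smurf2 had 13.5, 18.6 and 14.9 FPKM in IR, 14.9, 10.4 and 8.93 in DMBA and 11.9, 9.83 and 12.9 in vehicle libraries, and IR overlapped DMBA through DMBA 1. Its log2 fold change was 0.50 ± 0.22 against DMBA (edgeR adjusted p = 0.56).

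The ID genes encode helix-loop-helix proteins that lack a DNA-binding region and hold back partners such as the E proteins. All 4 had lower fitted values in IR than in DMBA, with log2 fold changes between -0.60 and -0.48, and 0 were called by edgeR, DESeq2 or limma. Over all genes, 48.5% had a positive log2 fold change in that comparison. At an unadjusted p under 0.05, Id2 and Id3 were lower (50% of the 4), against 3.53% of all genes. Id2, whose promoter is shown above, had 24.6, 25.7 and 27.1 FPKM in IR, 30.7, 33.5 and 50.9 in DMBA and 33.5, 25.2 and 25.8 in vehicle libraries. The IR and DMBA libraries of Id2 did not overlap, with DMBA 3 the highest (log2 fold change -0.52 ± 0.21; edgeR adjusted p = 0.476). Id3 had 69.7, 102.3 and 70.8 FPKM in IR, 110.9, 93.9 and 156.4 in DMBA and 105.3, 136.5 and 82.7 in vehicle libraries. IR 2 lay within the DMBA range (log2 fold change -0.52 ± 0.22; edgeR adjusted p = 0.489). Id4 had 9.43, 8.63 and 10.1 FPKM in IR, 9.66, 14.9 and 15.95 in DMBA and 11.8, 11.2 and 11.1 in vehicle libraries. For Id4, IR lay below vehicle by a narrow margin (log2 fold change -0.27; edgeR adjusted p = 0.892). Id1 had 19.4, 11.1 and 5.60 FPKM in IR, 18.03, 18.8 and 19.5 in DMBA and 16.4, 14.2 and 13.7 in vehicle libraries. DMBA lay above vehicle (log2 fold change 0.31, edgeR adjusted p = 0.935). IR 1 lay within the DMBA range, and IR 2 and IR 3 lay below each DMBA and vehicle library. Spearman's rho of Id1 with basal keratinocyte RNA was 0.87 and Pearson's r 0.68 (exact permutation p = 0.00451 and 0.0388; adjusted p = 0.0766 and 0.227).

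**Figure D5:**
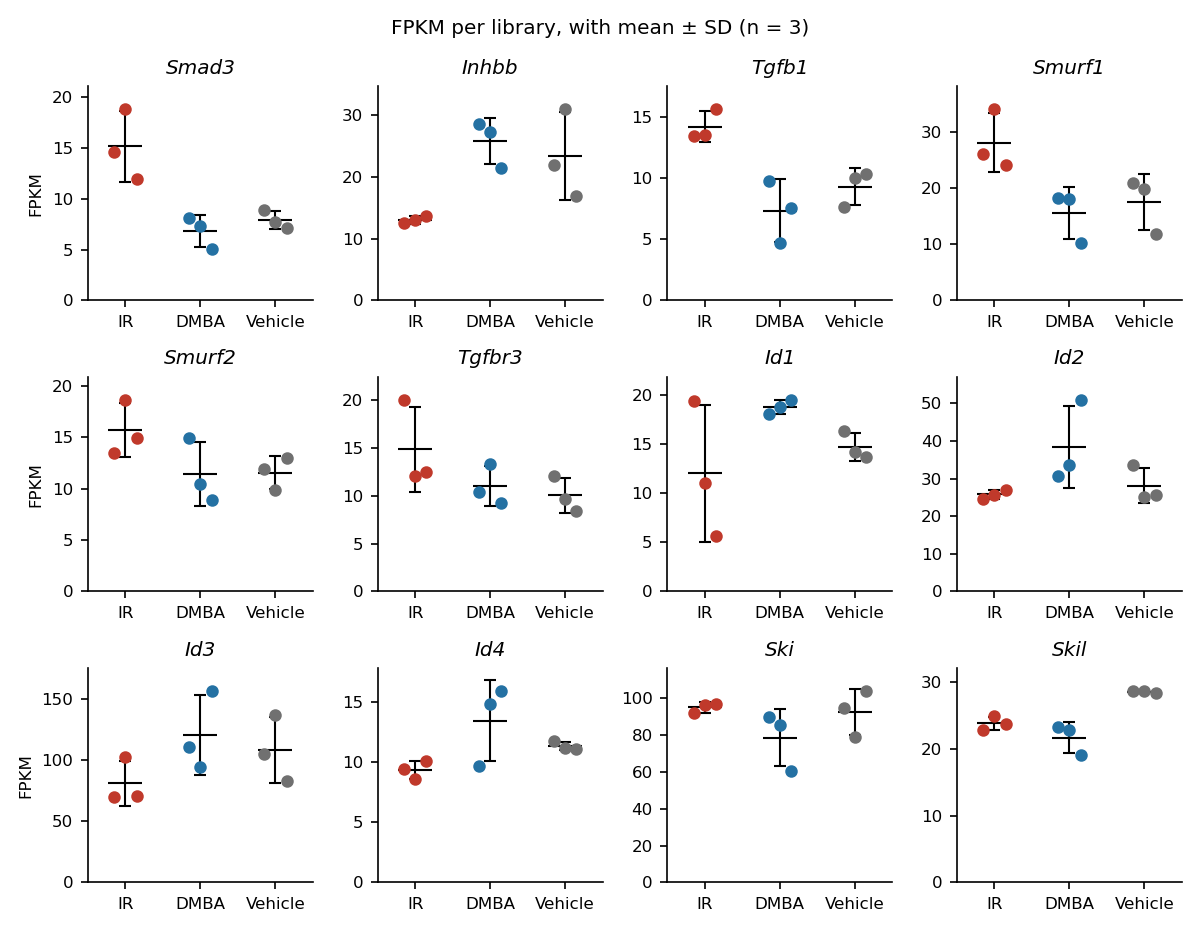
FPKM in each library of 12 genes, with mean ± SD of 3, for IR, DMBA and vehicle. The IR points of Smad3, Tgfb1 and Smurf1 lie above and those of Inhbb below all other libraries, and all 6 treated libraries of Skil lie below vehicle.

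A further 102 genes of these pathways were listed, of which 82 passed the count filter. By edgeR 0 were called in each comparison. At an unadjusted p under 0.05 there were 12 for IR against vehicle (14.6%; all genes 8.26%), 2 for DMBA against vehicle (2.44%; all genes 6.7%) and 14 for IR against DMBA (17.1%; all genes 8.12%). DESeq2 called 2, 0 and 6 in these comparisons, of 260, 51 and 320 among all genes, and limma 1, 0 and 0, of 86, 1 and 89. Those of DESeq2 were Gdf15 and Sp1 for IR against vehicle. For IR against DMBA they were Gdf15, Sp1, Zeb2, Nfatc1, Nedd4l and Tgif1. In the joint test of the 3 groups, Gdf15 was the only one called (edgeR adjusted p = 0.0429), with 0.0592 for IR against vehicle alone. That joint call was lost without vehicle 1, vehicle 2, IR 1, IR 2 or IR 3, without vehicle 2 and IR 2 together, with library totals and in limma except with a pseudocount of 5. Gdf15, which encodes a distant TGF-beta family ligand and is also a known p53 target, had 14.2, 9.71 and 8.31 FPKM in IR, 0.21, 0.14 and 3.35 in DMBA and 0.46, 0 and 0.84 in vehicle libraries. Each IR library lay above each of the other 6. Gdf11, another ligand gene, ranged from 0.56 to 0.99 FPKM in IR, 0.82 to 2.13 in DMBA and 0.06 to 2.22 in vehicle libraries. Of 3 further receptor genes tested, Amhr2, the anti-Muellerian hormone receptor gene, had 2.82, 2.36 and 2.25 FPKM in IR, 1.29, 0.63 and 0.58 in DMBA and 0.49, 1.72 and 0.28 in vehicle libraries (IR against DMBA, edgeR adjusted p = 0.787). IR lay above the others for Amhr2 at these low levels. Acvrl1, which encodes ALK1, had 3.33, 2.59 and 1.26 FPKM in IR, 1.85, 3.19 and 3.85 in DMBA and 4.0, 3.73 and 3.96 in vehicle libraries (IR against vehicle, edgeR adjusted p = 0.774).

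Among 9 tested BMP-induced genes, 4 (44.4%) had an unadjusted p under 0.05 for IR against DMBA, against 8.12% of all genes, and 0 were called. Of these 4, 2 were higher (all genes: 4.59%) and 2 lower (3.53%). Of the further gene lists, this one had the highest share. The others lay between 0 and 22.2%, with the TGF-beta-induced genes at 12.5%. Nfatc1 had 39.1, 39.9 and 39.9 FPKM in IR, 27.1, 27.0 and 15.7 in DMBA and 21.8, 23.6 and 28.1 in vehicle libraries (IR against DMBA, edgeR adjusted p = 0.066). DESeq2 called Nfatc1 in that comparison (adjusted p = 0.0108). Nfatc1 is also one of the bulge markers given above. Hes1 and Hey1 were the lower ones and Runx2 the other higher one, names given after their values were seen. Atoh8, a helix-loop-helix gene induced by BMP, had 4.01, 2.98 and 1.75 FPKM in IR, 8.81, 3.19 and 4.77 in DMBA and 2.05, 1.53 and 0.57 in vehicle libraries (DMBA against vehicle, edgeR adjusted p = 0.565). Among 16 TGF-beta-induced genes, Zeb2, a repressor of E-cadherin, had 21.0, 23.7 and 26.0 FPKM in IR, 38.9, 33.9 and 35.3 in DMBA and 31.4, 29.7 and 30.2 in vehicle libraries (IR against DMBA, edgeR adjusted p = 0.0592). IR lay below each of the other 6 libraries for Zeb2. For IR against DMBA, DESeq2 (adjusted p = 0.00349) and the keratinocyte covariate fit (0.0252) called Zeb2. Its relative Zeb1 had 11.7, 12.4 and 13.4 FPKM in IR, 8.88, 10.7 and 9.49 in DMBA and 11.45, 11.8 and 11.9 in vehicle libraries (IR against DMBA, edgeR adjusted p = 0.467). Of 19 SMAD partners and modulators, Sp1, a GC-box factor that can act with SMAD3, had 54.0, 44.7 and 46.9 FPKM in IR, 35.4, 35.6 and 37.2 in DMBA and 35.6, 30.65 and 34.3 in vehicle libraries. IR lay above each of the other 6 for Sp1, which did not pass in the main fit (IR against vehicle, edgeR adjusted p = 0.104). DESeq2 called Sp1 against vehicle (adjusted p = 0.00616) and against DMBA (0.0231). The keratinocyte covariate fit called it against vehicle (edgeR adjusted p = 0.0357). The ubiquitin ligase gene Nedd4l had 10.8, 18.6 and 16.3 FPKM in IR, 9.06, 10.4 and 6.75 in DMBA and 9.50, 14.9 and 14.5 in vehicle libraries (IR against DMBA, edgeR adjusted p = 0.113). DESeq2 called Nedd4l in that comparison (adjusted p = 0.0267).

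Of 9 tested antagonists and co-receptors, Eng, which encodes endoglin, had 24.5, 27.15 and 22.7 FPKM in IR, 18.7, 17.6 and 12.1 in DMBA and 21.05, 16.2 and 17.3 in vehicle libraries (IR against DMBA, edgeR adjusted p = 0.242). Endoglin is best known from endothelial cells, whose 5 markers summed to at most 1.07 FPKM in each library. Which cells held the Eng RNA was not tested. Sostdc1, a secreted BMP and Wnt antagonist gene, had 8.54, 0.37 and 0.71 FPKM in IR, 9.06, 8.99 and 30.02 in DMBA and 7.09, 7.89 and 10.4 in vehicle libraries (IR against DMBA, edgeR adjusted p = 0.284). IR 1 lay near the DMBA and vehicle values, and IR 2 and IR 3 far below. Of 12 latency and activation genes, Itgav, the alpha V integrin gene, had 18.3, 18.8 and 13.0 FPKM in IR, 12.9, 13.1 and 8.68 in DMBA and 13.1, 9.19 and 11.25 in vehicle libraries (IR against vehicle, edgeR adjusted p = 0.36). Ltbp4, a relative of Ltbp1, had 8.19, 3.01 and 5.42 FPKM in IR, 7.31, 10.1 and 11.4 in DMBA and 8.78, 8.16 and 6.33 in vehicle libraries (IR against DMBA, edgeR adjusted p = 0.44). Among 8 helix-loop-helix genes, Tcf4, an E protein gene, had 7.15, 7.72 and 9.94 FPKM in IR, 10.4, 9.85 and 8.98 in DMBA and 10.4, 12.0 and 11.8 in vehicle libraries (IR against vehicle, edgeR adjusted p = 0.371). Tfe3, a relative of Mitf, had 9.44, 12.5 and 8.02 FPKM in IR, 7.71, 8.04 and 7.56 in DMBA and 7.85, 8.09 and 6.63 in vehicle libraries (IR against vehicle, edgeR adjusted p = 0.611).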

How the data were processed

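RNA of sorted melanocyte stem cells was sequenced in 9 libraries, 3 each for IR, DMBA and vehicle, grouped by sample title. Per the labels' protocols, total RNA was purified with a column kit and made into stranded SMARTer libraries. HTSeq 0.6.1, HISAT2 2.0.1, cutadapt 1.9.1 and bcl2fastq 2.17.1.14 are listed, with no role or order, per the submitters' processing notes. Genome build, annotation and strand setting were not given in the sources used here. Of the members, 19 overlap another gene body, 4 of them with a gene above 10% of their counts, so those counts are uncertain; 1 overlap is not reported here. The deposited read counts per gene are not normalized. The deposited FPKM were derived by the authors from those counts, and recomputing them from exonic gene size and column sums agreed within 0.0050.

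Counts were fitted with edgeR 4.0.16 (R 4.3.3) over all 9 libraries with filterByExpr (16051 of 55359 genes kept) and TMM scaling, 1 mean per group. Each SE was taken as the absolute log2 fold change over the square root of F. Scripts were tested on simulated data. The members and gene lists were chosen with earlier results of these data known. Values in every library are given for members with a mean FPKM of at least 5 in some group, those called, and those with the 6 smallest p per comparison. Of the other pathway genes, the 2 per list with the smallest p in the joint test are named. Alternatives used DESeq2 1.42.0 and limma 3.58.1, other filters, scalings and pseudocounts, and left-out libraries. Counts of libraries within a group differed beyond sampling noise (chi-square over degrees of freedom 14.9 to 36.3). No sequence was read with the files' own coordinates, which matched GENCODE vM21 for 2.87% of shared genes. Gene IDs without a symbol (1438) held 0.121 to 0.175% of counts and stayed in the fit. Python 3.11.15, pandas 2.3.3, numpy 2.4.6, scipy 1.17.1 and matplotlib 3.10.9 were used.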

Additional observations from a re-analysis of the deposited data

How the results depend on the processing

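The 14 member fold changes with an unadjusted p under 0.05 kept their direction in all 22 alternatives; the other members were not followed across settings. Of 308 values, 22 lost a call and 14 gained one. Members called for IR against DMBA (2) became 4 with no filter, 4 by DESeq2, 1 with RLE scaling, 0 by limma with pseudocounts of 1, 0.1 and 5 and with no FPKM filter, 1 with the keratinocyte covariate and 0 with 7 libraries (without vehicle 2 and IR 2), and lay between 0 (without IR 2 or DMBA 2) and 4 (without IR 1) with a library left out. For IR against vehicle (0) they became 3 with no filter, 2 by DESeq2 and 1 with the covariate, and 0 with a library left out. For DMBA against vehicle no alternative called a member. In the joint test (1) they became 4 with no filter, 2 by DESeq2, 0 by limma at each pseudocount and with no FPKM filter, and 0 with 7 libraries, and lay between 0 (without IR 2 or DMBA 3) and 2 (without vehicle 3) with a library left out. With the covariate the 1 member in the joint test was Inhbb in place of Smad3. Other pathway genes for IR against vehicle (0) became 2 with no filter, 2 by DESeq2, 1 by limma with pseudocounts of 1 and 5, 2 with 2 groups only and 3 with the covariate (0 to 2 with a library left out). For DMBA against vehicle (0) they became 3 with no filter. For IR against DMBA (0) they became 8 with no filter, 1 with library totals, 6 by DESeq2, 1 by limma with a pseudocount of 5 and 1 with the covariate (0 to 9 with a library left out, 9 without IR 1). Genes called in all for IR against vehicle (118) became 236 with no filter, 260 by DESeq2, 69 by limma with a pseudocount of 0.1, 49 with no FPKM filter, 179 with the covariate and 63 with 7 libraries (76, without vehicle 3, to 131 with a library left out). For DMBA against vehicle (6) they became 159 with no filter, 51 by DESeq2, 1, 1 and 2 by limma with pseudocounts of 1, 0.1 and 5, 1 with no FPKM filter and 44 with 2 groups only (2 to 25, the highest without IR 1). For IR against DMBA (157) they became 371, 320, 89, 73, 101 and 58 with no filter, DESeq2 and the same 4 limma settings (96, without DMBA 3, to 421, without IR 1). The cause of these shifts was not tested. Deviations from the group means had correlations of -0.0866 to 0.0415 between same-numbered libraries and -0.0538 to 0.101 between the others. Such a check cannot show whether the numbers pair libraries. With the replicate block the members called for IR against DMBA numbered 2 (Smad3 and Smurf1), other pathway genes for IR against vehicle 1, and members in the joint test 2.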
